A study of Mus musculus with 6 samples.

Results

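The interferon-stimulated antiviral genes described here are a list of 33 mouse genes, from the RNA sensor Ddx58 to the antiviral enzyme Rsad2 (viperin), in mammary tumors and in the luminal cells those tumors were modelled on. A gene counted as measured where a probe set of the deposited table named it and no other gene, and the brightest such probe set stood for it. By this rule 30 of the 33 genes were measured, among 22180 genes in all. Oas1a and Dtx3l had only a probe set that also names another gene, Ifi44 had no probe set naming it in the annotation used, and no value is given for these 3.

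Total RNA was hybridised on 6 arrays. The wild-type group (K8wt) held 3 samples, replicates 1, 2 and 4, from separate Rosa26-Stop-YFP females, in which Cre recombinase switches on a yellow fluorescent protein. Their YFP+ luminal epithelial cells were sorted 10 to 14 days after an adenovirus, Ad-K8-Cre, had been injected into the mammary ducts. The tumor group (Brca1Tumor) held tumors 23, 24 and 25 from Trp53L/L;Brca1L/L females that had received the same virus several months earlier. The labels call these tumors null for both genes, and they describe no sorting of the tumors. The keratin 8 promoter of the virus restricts Cre to cells that use that promoter, so each tumor is meant to start from luminal cells. Every animal of both groups had received the virus, at different intervals before collection, and no animal without virus was analysed here. Time since the virus, genotype, and tissue against sorted cells therefore cannot be told apart in any difference between the groups. Ages and strain backgrounds are not in the labels. The wild-type samples carry separate mouse numbers, whereas the tumors carry tumor numbers only; should some share a host, the p-values would rest partly on the spread within an animal.

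Interferons are secreted when a cell detects foreign or misplaced nucleic acid. Type I and type III interferons signal through Jak1 and Tyk2 to a complex with Stat2 and Irf9, which binds a DNA element called the interferon-stimulated response element (ISRE) in the promoters of antiviral genes. The induced proteins sense viral RNA, degrade it, block its translation or trap budding virus. Several of them, such as Irf7 and Stat2, also amplify the response. In tumors the same genes can be expressed without infection, by cancer cells as well as by infiltrating immune cells.

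Promoter sequence is shown for 4 of the genes, all with an ISRE core. Rsad2 was the single gene of the 30 that passed the test, and Oas3 was lower in every tumor than in every wild-type sample. Ifit1 was lower on some tumor arrays, and the group means of Isg15 were 0.14 apart. No gene with higher values in every tumor is among the 4. Sequences are those of RefSeq on build GRCm38.p6, written 5′ to 3′ on the strand of the gene, and end before the annotated start of the gene. Capitals mark the ISRE core searched for, GAAANNGAAA or its reverse complement. The Rsad2 stretch lies at chr12:26456543-26456592 on the minus strand, that of Oas3 at chr5:120777705-120777754 on the minus strand, that of Ifit1 at chr19:34640765-34640833 on the plus strand, and that of Isg15 at chr4:156200855-156200916 on the minus strand.
Rsad2: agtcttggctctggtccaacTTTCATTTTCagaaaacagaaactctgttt
Oas3: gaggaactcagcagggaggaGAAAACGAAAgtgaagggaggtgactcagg
Ifit1: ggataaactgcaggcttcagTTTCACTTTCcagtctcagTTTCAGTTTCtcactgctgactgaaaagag
Isg15: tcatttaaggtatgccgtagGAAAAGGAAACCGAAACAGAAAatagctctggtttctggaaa

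The Rsad2 core starts 120 bases before the annotated start of the gene, that of Oas3 75 bases before it, and those of Ifit1 104 and 85 bases before it. Isg15 carries 3 overlapping cores, which start 78, 72 and 66 bases before the gene. Windows from 250 bases before to 50 bases after the start were given for 24 of the 33 genes. An ISRE core on either strand was found for 12 of these 24 genes (50%), against 3.99% of the 27025 genes with a window in the table. The core of interferon gamma activated sites (GAS), TTCNNNGAA, was found for 5 of the 24 (20.8%), against 9.55% of all genes, and in Bst2 it overlapped an ISRE core. These are matches of letters and do not show that a factor binds there. Among measured genes with a window, the median tumor minus wild-type difference was -0.50 log2 units for the 11 with an ISRE core and -0.09 for the 10 without, a description with no test.

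Pairs of arrays of the same group had a Pearson's correlation over all genes of 0.938 to 0.966 (wild type) or 0.933 to 0.955 (tumors), and pairs of different groups one of 0.867 to 0.917. The luminal keratin Krt8 measured 10.31 to 11.12 on wild-type arrays and 7.76 to 9.41 in tumors, and the macrophage gene C1qa 4.32 to 5.19 and 8.13 to 9.33. The fibroblast marker Dcn was also high on the sorted wild-type arrays, at 10.10 to 11.11. It was the exception among the 7 fibroblast genes listed. The others lay at 3.37 to 6.42 on those arrays, and 6 of the 7 had higher means in tumors. On wild-type arrays the basal keratin Krt14 measured 8.48 to 9.27 and the endothelial marker Cdh5 5.54 to 7.34. The basal epithelial list averaged 6.07 to 6.67 there and the endothelial list 4.69 to 5.36. In these bulk samples fewer cells of a type and less RNA per cell cannot be told apart. A mark for background was set on each array at the 95th percentile of 1105 olfactory receptor genes. It lay between 3.24 and 3.86, and values under it are not told from background here.

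Rsad2 was the only measured antiviral gene whose level differed between tumors and wild-type cells by the test used. The radical SAM enzyme it encodes, viperin, makes a chain-terminating nucleotide that stops viral polymerases. Rsad2 measured 5.69, 6.02 and 5.89 on the arrays of wild-type replicates 1, 2 and 4, and 4.03, 3.48 and 3.39 in tumors 23, 24 and 25. All 3 tumors lay under all 3 wild-type samples, and the groups were separated by a gap wider than the range within either. It fell by 2.24 ± 0.23 log2 units (SE, n = 3 and 3), a 4.71-fold difference of RMA values, with an adjusted p of 0.014 in limma. Tumor 25 lay under the background mark and tumor 24 just above its own mark of 3.45, so the size of the fall is not settled. Without wild-type replicate 4 the adjusted p in limma was 0.067, with a difference of -2.22.

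Of the 30 genes, 1 fell and 0 rose in limma after Benjamini-Hochberg adjustment over all genes with a threshold of 0.05. Over all 22180 genes 1.39% fell and 2.52% rose (3.91% in all), so the share of antiviral genes called, 1 in 30, was close to that of genes at large. At an unadjusted p under 0.05 in limma there were 3 of the 30 in each direction. Of all genes, 13.4% were higher and 13.0% lower at that threshold. With array weights limma called Ifi35 higher, where 3.85% of all genes were called higher. The means of 19 genes were lower in tumors and those of 11 higher, with a median difference of -0.39, against a median of -0.12 over all genes and of 0.32 over the 7726 genes with a mean of at least 5. Groups did not overlap for 4 genes that were lower (Rsad2, Cmpk2, Oas3 and Bst2) and 3 that were higher (Eif2ak2, Ifit2 and Ifi35). That is 7 of 30, where the groups did not overlap for 36.4% of all genes (22.4% lower and 14.0% higher).

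**Figure D1:**
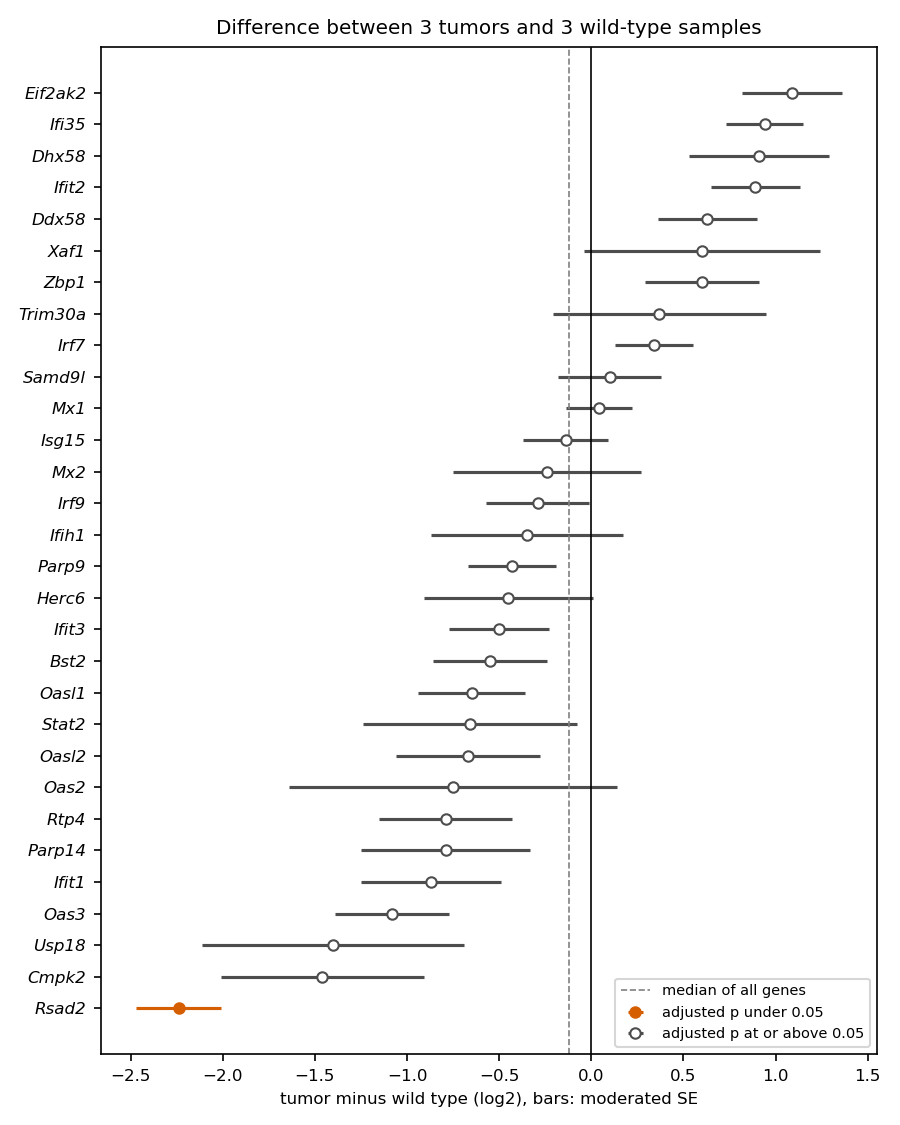
Difference between tumors and wild-type samples for the 30 measured antiviral genes, in log2 units, with the moderated standard error of limma as bars and the median of all genes (-0.12) as a dashed line. Rsad2, at -2.24, is the only filled point, which marks an adjusted p under 0.05; the other 29 genes lie between -1.46 (Cmpk2) and 1.09 (Eif2ak2).

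The most regular feature of these genes was their level in tumor 24. It had the highest value of the 3 tumors for 25 of the 30 genes (83.3%), tumor 25 for 3 and tumor 23 for 2, and it had the lowest for none. Over all genes tumor 24 was the highest tumor for 32.3%, and among the 7726 brighter genes for 25.2%. Some cell type lists, described below, had similar shares. Tumor 24 was highest for 5 of 6 basal epithelial genes (83.3%) and 6 of 7 dendritic and plasmacytoid genes (85.7%, Bst2 among them). It was highest for 3 of 10 macrophage genes and 0 of 8 luminal epithelial genes. Taken as the difference from the mean of the wild-type samples, the 30 genes had a median of 0.43 in tumor 24, of -0.58 in tumor 23 and of -0.62 in tumor 25, while over all genes these medians were -0.14, -0.12 and -0.11. Among the 7726 brighter genes they were 0.15, 0.32 and 0.43, so the 30 genes differed less from brighter genes in tumor 24 than in tumors 23 and 25. Tumors 23 and 25 both lay under every wild-type array for 16 of the 30 genes (53.3%, against 29.7% of all genes and 13.5% of the brighter ones). In tumor 24 this held for 5 genes (16.7%, against 41.4% of all and 27.2% of brighter genes), namely Oas3, Oasl1, Bst2, Rsad2 and Cmpk2. In the same tumor 16 genes lay above every wild-type array (53.3%, against 26.1% of all and 38.9% of brighter genes). This pattern was noticed in these values and has no replicate, since 1 tumor stands against 2, so it is given without a test.

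**Figure D2:**
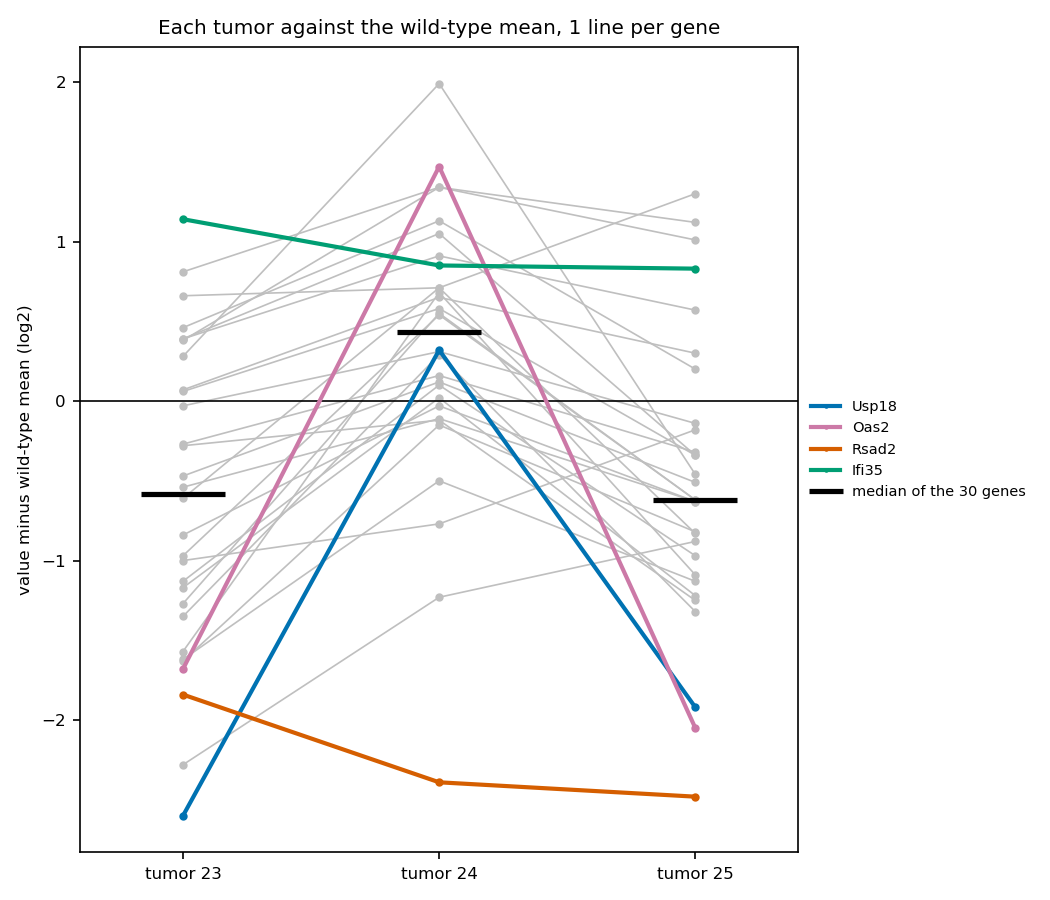
Each of the 30 antiviral genes in tumors 23, 24 and 25, as the value minus the mean of the 3 wild-type samples in log2 units, with 1 line per gene joining its values and black bars for the median (-0.58, 0.43 and -0.62). Oas2 and Usp18 stand above 0 in tumor 24 and far below it in tumor 25 (-2.05 and -1.92) and tumor 23, while Rsad2 is at -1.84 or lower and Ifi35 at 0.83 or higher in every tumor.

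The tumor group therefore held more spread than the wild-type group. The median SD of the 30 genes between tumors was 0.52 and between wild-type samples 0.29, where all genes had medians of 0.28 and 0.27. The 7726 brighter genes had medians of 0.47 and 0.39, so the tumor value of the 30 genes was close to that of brighter genes. Without tumor 24, limma called 6 of the 30 genes lower and 0 higher, against 1.33% of all genes lower and 4.08% higher in that fit. These 6 were Rsad2 (-2.16), Usp18 (-2.26), Oas2 (-1.87), Oas3 (-1.38), Parp14 (-1.33) and Rtp4 (-1.19), with adjusted p of 0.019 to 0.044 in limma. The median difference over the 30 genes was then -0.66, and -0.14 when tumor 23 and -0.19 when tumor 25 was left out instead. Tumor 24 was left out on the strength of these same values, so the 6 calls are not independent of that choice.

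Of the sensors, Ddx58 (RIG-I) and Ifih1 (MDA5) are helicases that recognise viral RNA, Dhx58 (LGP2) modulates both, and Zbp1 binds Z-form nucleic acid and can trigger cell death. Ddx58 measured 6.52, 6.18 and 7.01 in wild-type replicates 1, 2 and 4 and 6.97, 7.49 and 7.14 in tumors 23, 24 and 25. The lowest tumor lay just under the highest wild-type sample. Its difference was 0.63 ± 0.27 (SE, n = 3 and 3), with an adjusted p of 0.20 in limma. Dhx58 differed by 0.91 ± 0.38 and Zbp1 by 0.60 ± 0.31, the latter -0.02 after centring on housekeeping genes. Ifih1 measured 5.76, 5.38 and 6.87 in wild-type cells and 5.04, 6.55 and 5.39 in tumors 23, 24 and 25, overlapping between the groups, and its difference of -0.35 ± 0.52 was 0.09 without wild-type replicate 4. None of the 4 passed, and tumor 24 was the highest tumor for all 4.

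Among the transcription factors, Stat2 and Irf9 form the complex that binds the ISRE, and Irf7 drives the production of more interferon. Stat2 measured 6.92, 7.46 and 6.81 in wild-type replicates 1, 2 and 4. In tumors 23, 24 and 25 it measured 5.49, 7.74 and 5.98. Tumors 23 and 25 were below every wild-type sample and tumor 24 above every one, so the difference of -0.66 ± 0.58 (SE, n = 3 and 3) averages opposite positions. Irf9 and Irf7 varied less, at -0.29 ± 0.28 and 0.34 ± 0.21, the latter -0.28 after centring on housekeeping genes, and tumor 24 was again the highest tumor for both. Adjusted p of the 3 genes lay between 0.32 and 0.52 in limma.

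The ISG15 system attaches a ubiquitin-like protein to new proteins. Isg15 is the modifier, Herc6 the mouse ligase that attaches it, and Usp18 the protease that removes it and also restrains signalling at the interferon receptor. Usp18 measured 6.64, 6.83 and 7.02 in wild-type replicates 1, 2 and 4 and 4.23, 7.15 and 4.92 in tumors 23, 24 and 25. It lay far under every wild-type sample in tumors 23 and 25 and slightly above them all in tumor 24. The difference over the 3 tumors, -1.40 ± 0.71 (SE, n = 3 and 3), did not pass (adjusted p of 0.25 in limma). Herc6 placed the tumors likewise around the wild-type samples, with 5.26 and 5.91 in tumors 23 and 25, 7.07 in tumor 24 and 6.21 to 6.80 in wild-type cells. Isg15 itself was at 6.56 to 7.06 in wild-type cells and 6.56 to 7.04 in tumors, a difference of -0.14 ± 0.23.

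The OAS proteins are sensors of double-stranded RNA that make the messenger activating RNase L, and Oasl1 and Oasl2 are relatives of them. Oas2 had the widest spread of the 30 genes among tumors. It measured 6.38, 6.29 and 6.49 in wild-type replicates 1, 2 and 4 and 4.71, 7.86 and 4.33 in tumors 23, 24 and 25. Tumor 24 was 3.34 log2 units above the mean of the other tumors, and the wild-type samples lay close together between them. The group difference of -0.75 ± 0.89 (SE, n = 3 and 3) had an adjusted p of 0.58 in limma. OAS genes are close relatives whose probes can share signal.

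Oas3 measured 4.98, 4.65 and 5.13 in wild-type replicates 1, 2 and 4 and 3.30, 4.42 and 3.79 in tumors 23, 24 and 25. All tumors lay under all wild-type samples, tumor 24 least so, and the difference of -1.08 ± 0.31 (SE, n = 3 and 3) did not pass (adjusted p of 0.10 in limma). Oasl2 differed by -0.67 ± 0.39, with tumor 24 within the wild-type range, and Oasl1 by -0.65 ± 0.29, with tumor 25 the highest tumor. Eif2ak2 (PKR), a kinase that halts translation when it binds double-stranded RNA, had higher values in tumors instead. It measured 3.76, 3.30 and 4.17 in wild-type replicates 1, 2 and 4 and 4.55, 5.08 and 4.86 in tumors 23, 24 and 25. Every tumor lay above every wild-type sample, of which 2 were under the background mark, and the difference of 1.09 ± 0.27 had an adjusted p of 0.080 in limma.

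Of the IFIT proteins, Ifit1 binds viral RNA that lacks the host's cap methylation and blocks its translation. Ifit1 measured 5.88, 5.59 and 5.40 in wild-type replicates 1, 2 and 4, and 4.00, 5.48 and 4.80 in tumors 23, 24 and 25. Tumors 23 and 25 were lower than all wild-type samples and tumor 24 was among them, with a difference of -0.87 ± 0.38 (SE, n = 3 and 3). Ifit3 had the same order of the 3 tumors with smaller steps, at 4.79 to 5.25 in wild-type cells and 4.11, 4.92 and 4.32 in the tumors. Ifit2 did not follow its relatives. It measured 3.48, 3.34 and 3.05 on the wild-type arrays, all under the background mark, and 3.95, 4.00 and 4.59 in the tumors, a difference of 0.89 ± 0.24. None of the 3 passed, at adjusted p of 0.091 to 0.27 in limma.

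Cmpk2, a mitochondrial nucleotide kinase, is the neighbour of Rsad2 in the RefSeq annotation and its product supplies the nucleotide that viperin converts. It measured 5.59, 5.26 and 6.99 in wild-type replicates 1, 2 and 4 and 3.67, 4.71 and 5.06 in tumors 23, 24 and 25. All tumors were lower than all wild-type samples, as for Rsad2, but wild-type replicate 4 stood well above the other wild-type samples. The difference of -1.46 ± 0.55 (SE, n = 3 and 3) did not pass (adjusted p of 0.16 in limma). Bst2 (tetherin), which holds budding virus at the cell surface, was at 8.50, 8.46 and 8.40 in wild-type cells and at 8.17, 8.34 and 7.21 in tumors 23, 24 and 25. Its groups did not overlap, and most of the difference of -0.55 ± 0.31 came from tumor 25.

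Mx1 and Mx2 are dynamin-like GTPases that trap viral components, Mx1 being defective in most inbred laboratory mice. Mx1 lay under the background mark on all 6 arrays, at 2.12 to 2.57, so nothing is said of its direction. Mx2 measured 3.88, 4.42 and 5.28 in wild-type cells and 3.92, 5.23 and 3.69 in tumors 23, 24 and 25, a difference of -0.24 ± 0.51 (SE, n = 3 and 3) that was 0.13 without wild-type replicate 4 and 0.05 without tumor 25. Its values overlapped between the groups, with tumor 25 alone outside the wild-type range, below it.

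Parp14 is an ADP-ribosyltransferase of the macrodomain family, and Parp9 acts with the ligase Dtx3l in DNA damage and interferon signalling. Parp14 measured 6.41, 6.85 and 6.68 in wild-type replicates 1, 2 and 4 and 5.30, 6.93 and 5.33 in tumors 23, 24 and 25. Tumors 23 and 25 were nearly equal and well under every wild-type sample, and tumor 24 was just above them all. Parp9 was also highest of the tumors in tumor 24, over a smaller range of 5.14 to 5.65, against 5.55 to 6.13 in wild-type cells. Neither passed over the 3 tumors, at adjusted p of 0.30 and 0.29 in limma.

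The 5 other measured genes were mixed. Rtp4, a chaperone of receptors that also acts as an interferon-induced inhibitor of viral replication, measured 6.92, 6.46 and 6.56 in wild-type cells and 5.48, 6.66 and 5.42 in tumors 23, 24 and 25, so that again only tumor 24 was within the wild-type range. Xaf1, a pro-apoptotic antagonist of XIAP, measured 5.20, 4.37 and 5.50 in wild-type cells and 5.31, 7.02 and 4.56 in tumors 23, 24 and 25, highest by far in tumor 24, a difference of 0.60 ± 0.64 (SE, n = 3 and 3) that was -0.09 without tumor 24 and -0.02 after centring on housekeeping genes. Ifi35, a partner of Nmi, measured 6.67, 7.24 and 6.94 in wild-type cells and 8.09, 7.80 and 7.78 in the tumors, all above the wild-type range. Its difference of 0.94 ± 0.21 missed the threshold (0.063, adjusted, in limma). A second, less bright probe set for Ifi35 gave a difference of the opposite sign, -0.55. Trim30a, of the tripartite motif family, and Samd9l, a translational repressor, differed by 0.37 ± 0.58 and 0.10 ± 0.28. Both signs turned after centring on housekeeping genes (-0.25 and -0.52) and without wild-type replicate 2 (-0.18 and -0.02), and that of Samd9l also without tumor 24 (-0.14) and with cyclic loess (-0.03) or quantile scaling (-0.06).

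**Figure D3:**
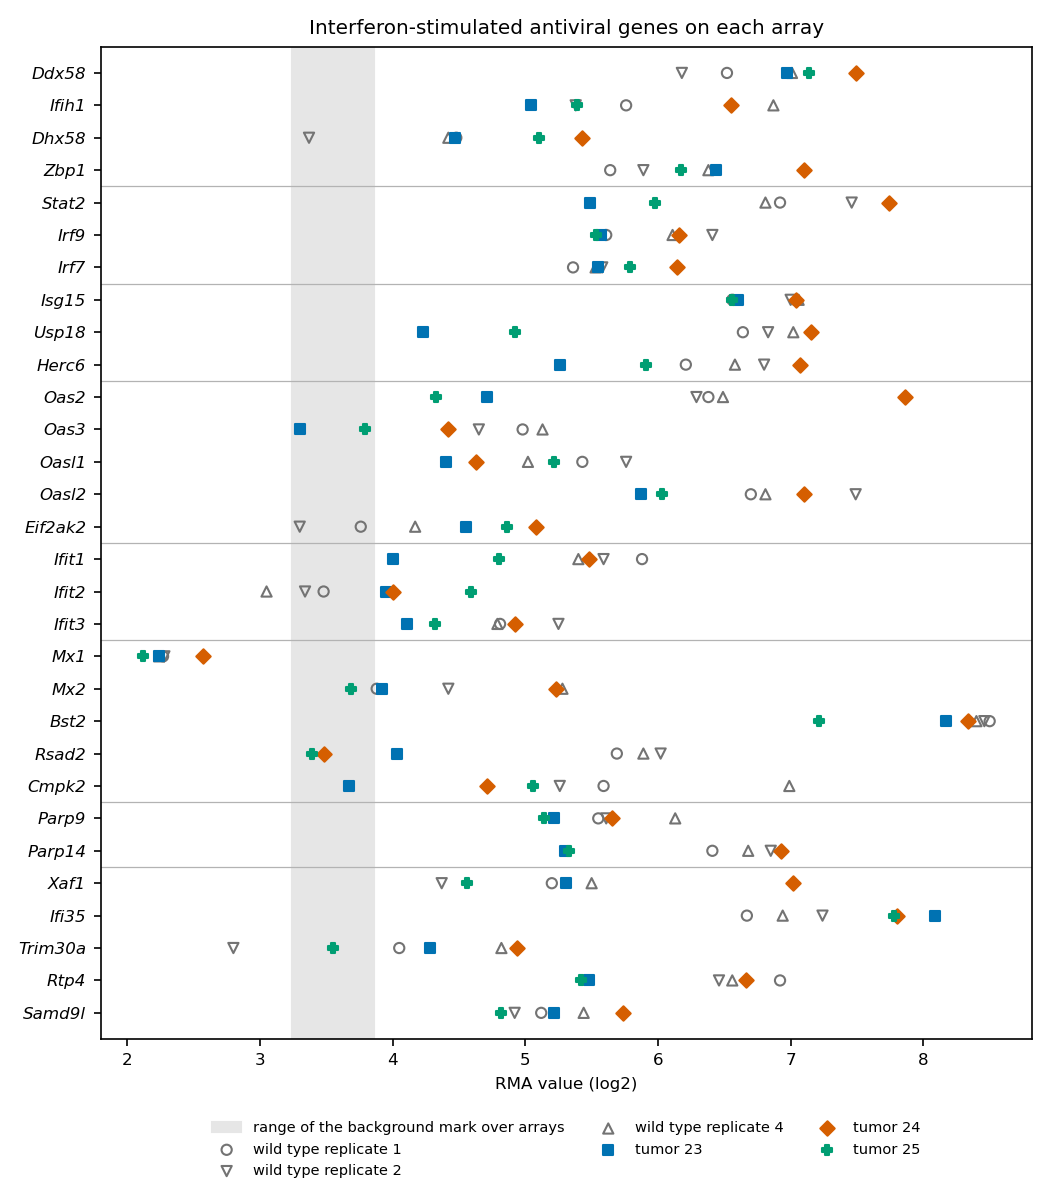
RMA value (log2) of each of the 30 measured antiviral genes on each of the 6 arrays, grouped by role, with open grey symbols for wild-type samples, filled symbols for tumors and a grey band for the background mark (3.24 to 3.86 over arrays). The orange diamonds of tumor 24 are the rightmost tumor symbol for 25 genes; Rsad2 shows all tumors left of all wild-type samples.

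Tumor 24 was also mostly the highest tumor among interferon-stimulated genes outside these 33. Of 40 other such genes listed, 36 were measured, and tumor 24 was the highest tumor for 29 of them (80.6%, against 32.3% of all genes). They were listed with earlier results of these data known and measured on the same arrays. Their values are therefore not independent of the pattern above. Relative to wild-type cells, the median of these genes stood at 0.60 in tumor 24, at -0.35 in tumor 23 and at -0.33 in tumor 25. Over the 3 tumors 1 of the 36 rose and 1 fell by limma, where 2.52% of all genes rose and 1.39% fell. The median difference of the 36 genes was -0.07. The RNA helicase Mov10, a restriction factor of retroelements, rose from 4.34, 4.13 and 4.47 in wild-type cells to 5.62, 5.71 and 6.62 in tumors 23, 24 and 25, by 1.67 ± 0.30 (SE, n = 3 and 3) with an adjusted p of 0.039 in limma. Ifitm3, which blocks the entry of enveloped viruses, fell by 1.27 ± 0.25, from 9.77, 9.36 and 9.64 to 7.97, 8.74 and 8.25, with an adjusted p of 0.047. The groups overlapped for neither gene; tumor 25 was the highest tumor for Mov10 and tumor 24 for Ifitm3. Mov10 did not pass without any single wild-type sample or without tumor 23 (adjusted p of 0.069 to 0.11 in limma), and Ifitm3 passed in only 1 of the 6 fits that left out an array, the one without tumor 24 (0.098 to 0.14 in the others). Ifitm3 also did not pass after quantile scaling (adjusted p of 0.052 in limma), after cyclic loess (0.063) or with a trended prior (0.065).

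Most interferon genes themselves were near background. Of 17 measured ligand genes, 10 to 13 lay under the background mark on each array, among them Ifnb1 on all 6, at 1.98 to 2.60. Ifna1 (5.32 to 5.93), Ifna4 (4.43 to 5.66) and the type III interferons Ifnl2 (5.16 to 6.08) and Ifnl3 (4.13 to 5.49) lay above it on every array, and none of these 4 passed (adjusted p of 0.14 to 0.51 in limma). Ifna2 fell by 0.99 ± 0.18 (SE, n = 3 and 3, adjusted p of 0.040 in limma), from 3.39, 3.67 and 3.83 to 2.65, 2.61 and 2.65. It lay under the mark on 2 wild-type arrays and on every tumor array, it passed in none of the 6 fits that left out an array (adjusted p of 0.060 to 0.12 in limma) nor after quantile scaling (0.088) or cyclic loess (0.090), and alpha interferon genes are close copies whose probes can share signal. Of the 9 measured receptor and kinase genes none passed in limma, with 2 higher and 0 lower at an unadjusted p under 0.05 (13.4% and 13.0% of all genes), and their median difference was 0.30. The largest differences were those of the receptor subunit Ifnar1 (1.17 ± 0.38, adjusted p of 0.12 in limma) and the kinase Tyk2 (0.84 ± 0.25, 0.11).

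Of 13 measured sensing adaptors and inducers none passed in limma, with 3 higher and 1 lower at an unadjusted p under 0.05, where 13.4% and 13.0% of all genes were. The kinase Ikbke, which activates Irf3 and Irf7, measured 3.17, 3.82 and 3.40 in wild-type cells, all under the background mark, and 5.95, 5.58 and 4.48 in tumors 23, 24 and 25. Every tumor was above every wild-type sample, by 1.88 ± 0.40 on average (SE, n = 3 and 3), and the adjusted p of 0.058 in limma was under 0.05 in 6 of the alternatives, such as quantile scaling (0.048). The DNA-sensing adaptor Sting1 measured 7.30, 8.37 and 8.37 in wild-type cells and 5.89 to 7.07 in the tumors, a difference of -1.36 ± 0.44 with an adjusted p of 0.12. It was lowest in tumor 24, the reverse of most antiviral genes. Of 9 measured inhibitors and nucleic acid enzymes none passed either, with 2 in each direction at an unadjusted p under 0.05, to be read against the same shares. The nucleotide hydrolase Samhd1 was 1.22 ± 0.27 higher (adjusted p of 0.063 in limma), and Irf2, a repressor at the ISRE, 1.27 ± 0.36 lower in its mean (0.10).

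Markers of other cell types differed between the groups and between the tumors. All 10 macrophage genes had higher means in tumors and 7 rose by limma. The mean of that list was 3.77 to 4.31 on wild-type arrays and 6.61, 6.41 and 5.92 in tumors 23, 24 and 25. Tumor 23 was the highest tumor for 6 of the 10 genes, tumor 24 for 3 and tumor 25 for 1. T and NK cell genes had list means of 3.27 to 3.80, with 4 to 6 of 9 genes under the background mark on each array. Cd8a was under the mark on every array and Cd4 on 5 of 6, while Cd3e (4.16 to 5.52) and Nkg7 (4.20 to 5.59) were above it on all, and Cd3g reached 5.42 in tumor 23; none of the 9 passed in limma, with 0 higher and 2 lower at an unadjusted p under 0.05. All 5 measured B cell genes averaged 2.66 to 3.05. In the dendritic and plasmacytoid list, the mean was 4.75 in tumor 24 and 4.29 to 4.53 elsewhere. Tumor 24 was the highest tumor for 6 of its 7 genes. Tcf4 measured 8.21 in tumor 24 and 6.15 to 6.77 elsewhere. The other 6 genes averaged 4.15, 4.17 and 3.88 in tumors 23, 24 and 25, and 4.05 to 4.20 on wild-type arrays. That list contains Bst2, and 2 to 5 of its 7 genes lay under the background mark on each array. The plasmacytoid marker Siglech measured 3.43, 3.72 and 3.59 in tumors 23, 24 and 25 and 3.22 to 3.59 in wild-type cells.

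Tumor 24 also stood apart in other lists. The basal epithelial list averaged 6.52, 7.64 and 5.58 in tumors 23, 24 and 25, where wild-type samples had 6.07 to 6.67, and the fibroblast list 6.45, 7.01 and 5.46, where they had 5.40 to 5.79. Luminal epithelial genes averaged 8.38, 6.94 and 7.41 in tumors 23, 24 and 25, and 8.87 to 9.66 in wild-type samples. The skeletal muscle list averaged 3.94 in tumor 24, close to 3.67 to 3.81 in wild-type cells, but 9.59 in tumor 23 and 6.55 in tumor 25. The part of these lists in the antiviral genes was not tested.

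**Figure D4:**
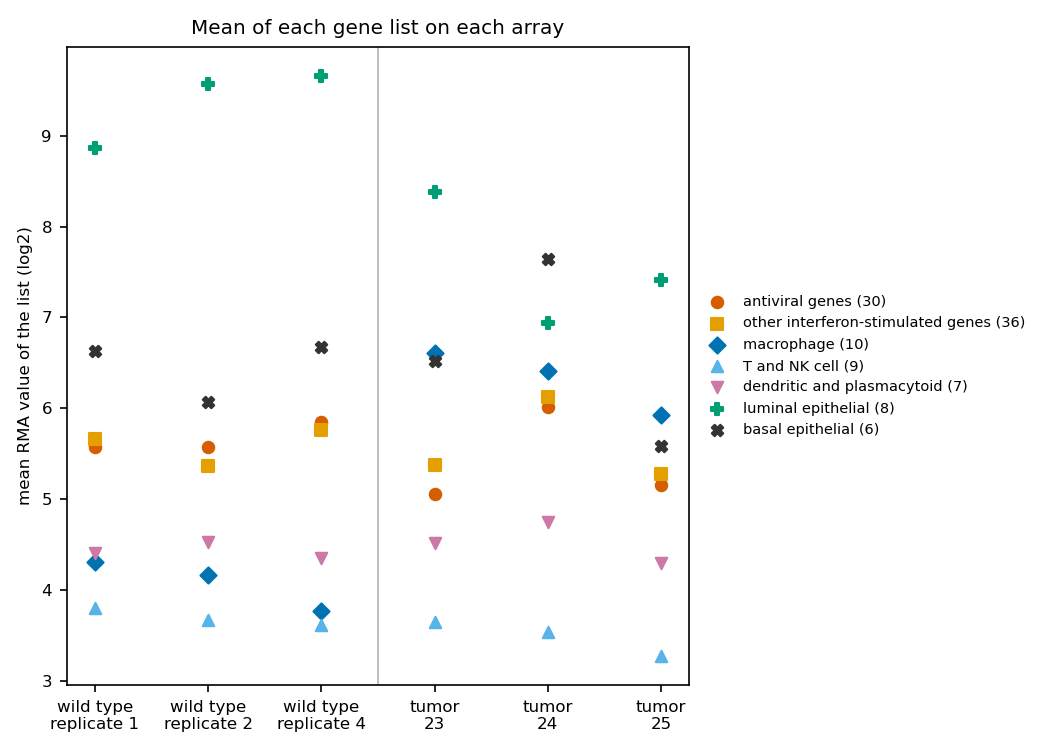
Mean RMA value (log2) of 7 gene lists on each of the 6 arrays, wild-type samples left of the grey line and tumors right of it, with the number of measured genes in brackets. The antiviral genes and the other interferon-stimulated genes are highest in tumor 24 (6.01 and 6.12), as is the basal epithelial list (7.64), while the macrophage list is highest in tumor 23 (6.61) and the luminal list lowest in tumor 24 (6.94).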

How the data were processed

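Total RNA of 3 wild-type samples and 3 tumors was amplified (NuGEN) and biotin-labelled, per the labels. The authors deposited log2 values, 1 per probe set and array, made with RMA and oligo per the submitters' processing notes; the sources used here give no versions, probe positions or genome build. RMA pulls arrays towards a common distribution and compresses differences near background. No scanner files were used, so no batch could be tested.

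Of 41345 probe sets, 23521 named 1 gene in the platform annotation, 1814 several and 16010 none; 23328 were matched by Entrez identifier to RefSeq symbols (GRCm38.p6). Groups were compared with limma 3.58.1 in R 4.3.3 (lmFit and eBayes, two-sided, no covariates, no filter), with Benjamini-Hochberg adjustment over 22180 genes. The number of arrays limits the precision. On simulated data of that size with 50 changed genes per size, the step recovered 16% of changes of 1 log2 unit, 62% of 2, 82% of 3 and 88% of 4, with 3.88% of 129 calls false.

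The named genes are all measured antiviral genes and, of each pathway list, the 4 largest called changes or the 2 largest differences. Genes and lists were chosen with earlier results of these data known. Alternatives are averaging the probe sets of a gene, 2 filters on dim genes, 3 scalings, a trended robust prior, array weights and leaving out each array.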

Additional observations from a re-analysis of the deposited data

How the results depend on the processing

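Rsad2 kept its direction under every alternative in which it was tested (-2.86 to -2.12); the filter at a mean of 5 removed it, and it passed under every other alternative except without wild-type replicate 4. Over the alternatives other than leaving out arrays, the 30 antiviral genes gave 211 values with the same direction and call, 10 newly called and 8 with the sign turned; over the fits that left out an array, 166, 5 and 8, with 1 call lost. Centring on 13 housekeeping genes shifted the median over all genes to -0.74, from -0.12, and called 7523 genes, of which 7.28% were higher against 64.5% without it. It called 10 antiviral genes lower, where 31.4% of all genes were called lower, and turned the sign of Zbp1 (-0.02), Irf7 (-0.28), Mx1 (-0.58), Xaf1 (-0.02), Trim30a (-0.25) and Samd9l (-0.52); the median of the 30 genes was -1.01. Quantile normalization again and cyclic loess moved the median of all genes to -0.01 and 0.03 and that of the 30 genes to -0.57 and -0.54, and turned Samd9l (-0.06 and -0.03). Array weights called 1324 genes over all and 1 antiviral gene higher, where 3.85% of all genes were called higher. With only genes of a mean of at least 5, 0 antiviral genes were called lower, since Rsad2 was not among them. Of all genes in that fit, 3.44% were called lower. Of the other pathway genes, 1 rose and 2 fell; 2 rose with array weights, with both filters, after quantile normalization again, with the trended robust prior and after housekeeping centring, and 1 fell with both filters, after quantile normalization again and cyclic loess and with the trended robust prior, against 22 after housekeeping centring. The gene that fell after quantile normalization again and cyclic loess was Nmi (-0.94 and -0.89), not Ifna2 or Ifitm3.

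Leaving out single arrays gave 72 to 1200 called genes. In these fits 0 to 6 antiviral genes were called lower and 0 to 0 higher. Of all genes, 0.189% to 1.33% were called lower and 0.135% to 4.08% higher. Medians of the 30 genes were -0.66 to -0.14, and 0 to 2 pathway genes were called higher and 0 to 1 lower. The lowest count of genes, 72, was without wild-type replicate 4 and the highest without tumor 24; fewer arrays also leave fewer degrees of freedom. Signs turned for 6 antiviral genes, whose differences over these fits ranged from -0.79 to 0.09 (Ifih1), -0.09 to 0.14 (Mx1), -0.72 to 0.13 (Mx2), -0.09 to 1.14 (Xaf1), -0.18 to 0.84 (Trim30a) and -0.14 to 0.32 (Samd9l). Apart from the fewer genes or arrays tested, the cause of these changes was not tested. No paired analysis was possible because the groups share no replicate numbers. Low signal limits what can be said of Mx1, Ifit2 in wild-type cells and most interferon genes.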

Other observations

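A few genes of the interferon lists differed within the wild-type group, chosen here after their values were seen. Oas1g, of the OAS cluster, measured 2.19 in wild-type replicate 2, under the background mark, against 6.37 and 6.26 in replicates 1 and 4, and 4.71, 8.49 and 5.13 in tumors 23, 24 and 25. Replicate 2 was also the lowest of all 6 arrays for Trim30a (2.80, against 3.55 to 4.94 on the others) and for Rnaseh2b, a subunit of ribonuclease H2 (3.93, against 5.07 to 6.96). Trim34a was high on a single array instead, at 6.30 in wild-type replicate 1 and 3.21 to 4.35 elsewhere. The other interferon-stimulated genes with tumor 24 far above the remaining arrays included Oas1b (6.05, against 3.55 to 4.32) and the regulator of class I antigen presentation Nlrc5 (6.58, which is 2.19 above the mean of tumors 23 and 25).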
